A study of Mus musculus with 6 samples.

Results

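The genes described here are a set known from Sertoli cells, the supporting cells that line the seminiferous tubule and nurse the germ cells. The set was given as Amh, Fshr, Dhh, Sox9, Wt1, Gata4, Clu, Cldn11 and Gdnf, and a probe belonged to it when the platform annotation gave it one of these symbols. This found 11 of the 45281 probes on the array, for 7 of the 9 genes. Wt1 and Clu had no probe under their symbol in the annotation used here and were not analysed here. The platform was the Illumina Mouse WG-6 v2.0 bead array, with 3 arrays of spermatogonial stem cells (SSC), isolated from the testes of CD1 mice aged 6 days, and 3 arrays of female germline stem cells (FGSC), isolated from the ovaries of CD1 mice aged 3 days. The study asked how the 2 germline stem cell types compare. Both groups are CD1 mice with no treatment or transgene named in the labels, and the labels do not say whether replicates came from separate animals or isolations, or how the cells were enriched. The groups differ at once in organ, in sex and in age, which cannot be told apart.

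In the mouse testis, SOX9 is the transcription factor that commits supporting cells to the Sertoli fate, and it acts with WT1 and GATA4. Sertoli cells then secrete AMH, the hormone that removes the Müllerian ducts, DHH, the hedgehog ligand read by Leydig and peritubular cells, and GDNF, the ligand that maintains spermatogonial stem cells through RET. They answer the pituitary through the receptor FSHR and close the blood-testis barrier with claudin 11. Granulosa cells, the related supporting cells of the ovary, use GATA4 and FSHR too and make AMH once follicles grow, so these genes are not all particular to the testis.

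RefSeq promoter windows (GRCm38.p6, 250 bases before to 50 after a start) were at hand for 4 of the 7 genes, Cldn11, Dhh, Fshr and Gdnf, with 5 windows in all. Windows of Fshr, Dhh and Gdnf, genes with a probe whose signal was lower in FGSC, are printed as sequence context. GATA motifs are marked because GATA4 is in the set. The motifs searched on both strands were GATAA (GATA factors), AAGGTCA (NR5A1), AACAAT and ACAAAG (SOX factors) and the E-box CACGTG, which was added after the sequences were seen. Capitals mark every match, and TTATC is GATAA on the other strand.
Fshr, chr17:89200626-89200925, minus strand: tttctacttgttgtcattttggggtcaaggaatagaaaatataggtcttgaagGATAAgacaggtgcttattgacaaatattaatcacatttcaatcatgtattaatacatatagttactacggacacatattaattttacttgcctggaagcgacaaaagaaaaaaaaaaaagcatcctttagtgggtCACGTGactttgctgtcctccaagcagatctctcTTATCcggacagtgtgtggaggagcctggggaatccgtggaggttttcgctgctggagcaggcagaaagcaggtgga
Dhh, chr15:98898491-98898790, minus strand: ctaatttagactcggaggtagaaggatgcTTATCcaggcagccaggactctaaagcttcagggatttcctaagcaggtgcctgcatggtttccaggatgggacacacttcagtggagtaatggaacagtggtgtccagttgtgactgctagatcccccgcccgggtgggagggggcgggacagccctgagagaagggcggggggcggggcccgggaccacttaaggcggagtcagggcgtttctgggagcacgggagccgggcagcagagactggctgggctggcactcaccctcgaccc
Gdnf, chr15:7813477-7813776, plus strand: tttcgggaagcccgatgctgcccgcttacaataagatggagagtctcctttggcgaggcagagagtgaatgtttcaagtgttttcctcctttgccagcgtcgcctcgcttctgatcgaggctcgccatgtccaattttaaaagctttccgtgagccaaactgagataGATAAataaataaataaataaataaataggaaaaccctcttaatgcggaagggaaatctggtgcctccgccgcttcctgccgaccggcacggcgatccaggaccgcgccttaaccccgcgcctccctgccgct
The Fshr window held GATAA at 197 and 27 bases before the start and CACGTG at 61 bases before it. The Dhh window held GATAA at 221 bases before the start, and the Gdnf window shown, one of 2 for this gene, held it at 83. No searched motif was in the other Gdnf window or in that of Cldn11, and neither the NR5A1 motif nor a SOX motif was in any of the 5. Over all 32851 promoter windows, GATAA was found in 25.4%, CACGTG in 7.15%, AAGGTCA in 4.72%, AACAAT in 10.7% and ACAAAG in 18.7%.

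Most of the Sertoli cell genes gave a clear signal on the SSC arrays and lay at background on the FGSC arrays. Amh and Gdnf showed the widest separation, Fshr, Dhh and Gata4 followed in the same direction, Cldn11 was divided among the FGSC arrays, and Sox9 was read in opposite directions by its 2 probes. Signals below are the deposited non-normalized values in arbitrary units, which sit between about 94.1 and 98.6 at the median of an array. A probe counted as detected where its deposited detection p-value, its rank against the negative controls of the array, was under 0.05. A difference is the FGSC level less the SSC level in log2 units, after background correction and normalization, with the standard error (SE) of the limma fit over all kept probes, and adjusted p-values are limma's with Benjamini-Hochberg adjustment. A fold given as "at least" compares group means, with the undetected arrays set no lower than the lowest detected signal. It leaves out the spread among arrays and is not a confidence limit. The adjusted p beside it is that of the fitted difference.

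The correlation of normalized signals between arrays was 0.984 to 0.994 within SSC, 0.956 to 0.993 within FGSC and 0.777 to 0.827 between the groups. FGSC replicate 3 stood apart from the other FGSC arrays, with the fewest detected probes (16198) and the lowest 95th percentile of signal (403, against 464 to 577 on the others). Without it, Amh, Gdnf, Dhh, Gata4, the brightest Fshr probe and a Sox9 probe were still called lower, while the calls of Cldn11 and of the other Sox9 probe changed, as given with those genes.

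**Figure D1:**
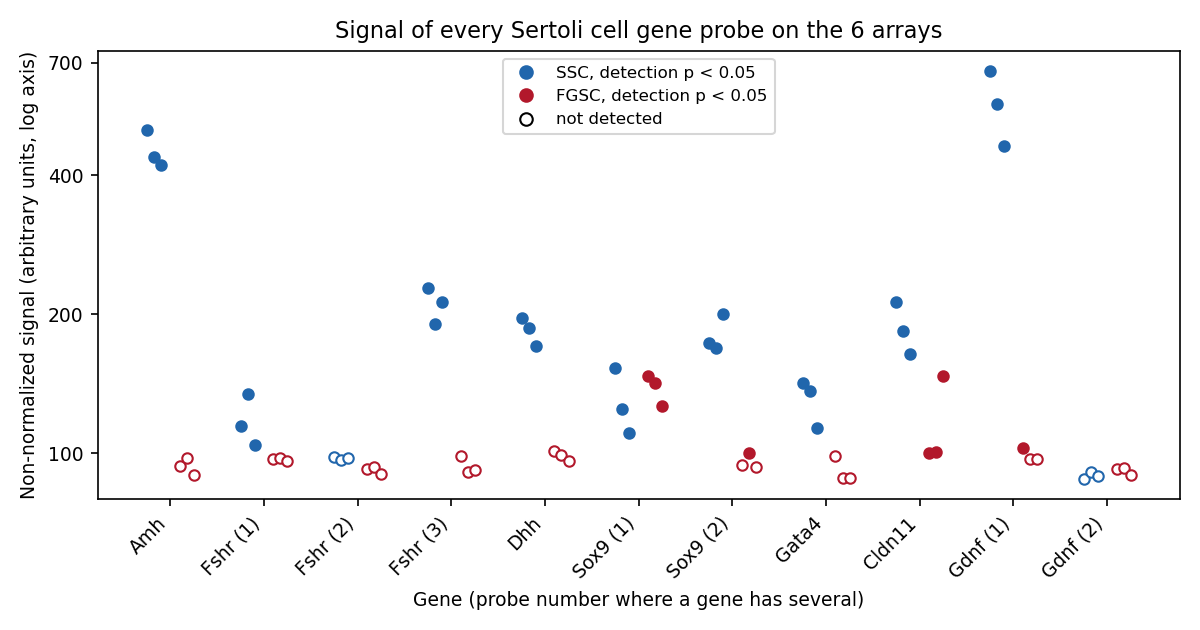
Non-normalized signal (arbitrary units, log axis) of all 11 probes of the 7 genes, with the 3 SSC arrays in blue and the 3 FGSC arrays in red for each probe, and open points where the probe was not detected. Probes of a gene are numbered in the order of their identifiers. The Amh and first Gdnf probes stand between 421 and 672 in SSC and at or under 103 in FGSC.

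The test took in probes with a detection p under 0.05 on 3 or more of the 6 arrays, 18860 in all and 9 of the 11 Sertoli cell gene probes. Of all kept probes 29.6% were called lower and 29.4% higher in FGSC at an adjusted p under 0.05. Of the 9, 6 were called lower, 1 was called higher and 2 were not called. The filter had a part in this count. Amh, Dhh, Gata4 and 2 Fshr probes were detected on no FGSC array, so they could be kept only by being detected on all SSC arrays, and of the 1685 kept probes with no detection in FGSC 71.9% were called lower. The other 4 kept probes, 2 of Sox9 and 1 each of Cldn11 and Gdnf, were detected on at least 1 array of each group, and 2 of them were called lower and 1 higher, where all such probes gave 26.5% lower and 29.7% higher. No count over these genes therefore speaks for the set as a whole. In such preparations fewer cells of a type and less RNA per cell cannot be told apart.

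Among the secreted signals, Amh (ILMN_2768691, chromosome 10) gave 502, 439 and 421 on SSC replicates 1 to 3, each with a detection p of 0. On FGSC replicates 1 to 3 it gave 94.1, 97.8 and 90.0, with detection p-values of 0.634, 0.125 and 0.640. The SSC arrays were close to each other and all far above the FGSC arrays, which were at background. The normalized log2 level was 8.54 ± 0.04 (SD, n = 3) in SSC, and Amh was at least 12.7-fold lower in FGSC, with an adjusted p of 6.74e-07.

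Gdnf had 2 probes. The first (ILMN_2659994, chromosome 15) gave 672, 572 and 464 in SSC, all with a detection p of 0, and 103, 97.5 and 97.4 in FGSC, with detection p-values of 0.0459, 0.139 and 0.0662. The groups were far apart, and in FGSC the gene was detected on replicate 1 only, just under the threshold. The log2 level was 8.93 ± 0.17 (SD, n = 3) in SSC and 4.84 ± 0.04 in FGSC, a difference of -4.08 ± 0.10 (SE) with an adjusted p of 9.90e-07, and its size rests on an FGSC level close to background. The second probe (ILMN_2701617) was detected on no array. Its signals were 88.2, 91.0 and 89.3 in SSC and 92.3, 93.0 and 90.0 in FGSC, with detection p-values from 0.528 to 0.962, so it was not kept and did not show the signal of the first.

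Dhh (ILMN_2595664, chromosome 15) gave 196, 187 and 170 in SSC with a detection p of 0, and 101, 99.1 and 96.3 in FGSC with detection p-values of 0.0929, 0.0737 and 0.101. The FGSC values lay together just short of detection. Dhh was at 6.62 ± 0.12 (log2, SD, n = 3) in SSC and was at least 3.36-fold lower in FGSC (adjusted p = 8.51e-06).

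The receptor gene Fshr (chromosome 17) had 3 probes. The brightest (ILMN_2932141) gave 228, 191 and 213 in SSC, all with a detection p of 0, and 98.8, 91.4 and 92.3 in FGSC, with detection p-values of 0.216, 0.706 and 0.391. It was at 6.96 ± 0.16 (log2, SD, n = 3) in SSC and at least 4.25-fold lower in FGSC (adjusted p = 6.17e-06). On the probe ILMN_1228881 the SSC signals were lower and less even, 115, 135 and 104, against 97.1, 97.9 and 96.3 in FGSC, where it was not detected (p-values of 0.332, 0.120 and 0.101). The groups did not overlap, which was true of 68.7% of all kept probes, and the difference of -0.44 ± 0.21 (SE) was not called (adjusted p = 0.116, 95% interval -0.95 to 0.07). The third probe (ILMN_2736929) was detected on no array, with signals of 98.2, 96.6 and 97.8 in SSC (p-values of 0.167, 0.128 and 0.0662) and 92.5, 93.7 and 90.2 in FGSC (0.763, 0.436 and 0.622). Only the brightest of the 3 Fshr probes was called.

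The transcription factor gene Gata4 (ILMN_2817903, chromosome 14) gave 142, 137 and 113 in SSC, with detection p-values of 0, 0 and 0.00214, and 98.9, 88.5 and 88.4 in FGSC, with 0.208, 0.923 and 0.808. It was low in SSC and not detected in FGSC. Its log2 level was 5.52 ± 0.34 (SD, n = 3) in SSC, and it was at least 1.57-fold lower in FGSC (adjusted p = 0.00545).

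Sox9 (chromosome 11) was measured by 2 probes that the annotation assigns to the same transcript and that went opposite ways. The probe ILMN_3007428 gave 173, 169 and 201 in SSC, each with a detection p of 0, and 94.5, 100 and 93.6 in FGSC, where it was detected on replicate 2 only (p-values of 0.581, 0.0481 and 0.275). Its log2 level was 6.57 ± 0.38 (SD, n = 3) in SSC and 4.77 ± 0.09 in FGSC, and the difference of -1.80 ± 0.19 (SE) was called (adjusted p = 0.000283), and its size too rests on an FGSC level close to background. The probe ILMN_2778151 was detected on all 6 arrays with a detection p of 0, at 153, 125 and 111 in SSC and 147, 142 and 127 in FGSC. These raw signals overlapped between the groups. After normalization the groups were just separate, at 5.47 ± 0.38 (SD, n = 3) in SSC and 6.00 ± 0.05 in FGSC, and the difference of 0.53 ± 0.19 (SE) was called by a small margin (adjusted p = 0.0455, 95% interval 0.09 to 0.98). That call was lost when any array other than SSC replicate 1 was left out (adjusted p from 0.0754 to 0.106 without each of the others), and with median scaling the difference was 0.19 (adjusted p = 0.639). Averaged over both probes, Sox9 differed by -0.63 (adjusted p = 0.000170). No direction for the gene as a whole is therefore given, and where on the transcript each probe lies was not analysed here.

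**Figure D2:**
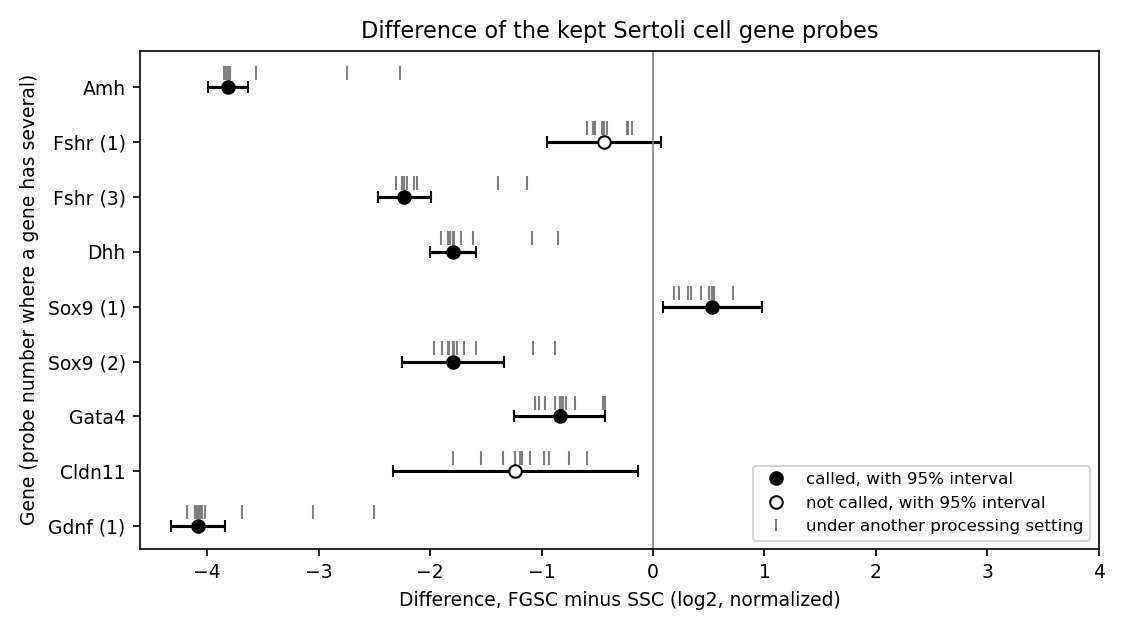
Difference between FGSC and SSC (log2, normalized signal) for the 9 kept probes, with the 95% interval of the limma fit. Filled points were called at an adjusted p under 0.05, and grey ticks give the same difference under each other processing setting. Gdnf stands at -4.08 and Amh at -3.81, and the first Sox9 probe, at 0.53, is the only one above 0. Amh, Fshr, Dhh and Gata4 were detected on no FGSC array, so the size plotted for them is set by the background there.

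Cldn11 (ILMN_1246139, chromosome 3), the claudin of the blood-testis barrier, gave 212, 184 and 164 in SSC and 100, 101 and 147 in FGSC, all with a detection p of 0. FGSC replicate 3 was near the SSC arrays and far above the other 2 FGSC arrays. After normalization the groups overlapped, at 6.64 ± 0.19 (log2, SD, n = 3) in SSC and 5.40 ± 0.97 in FGSC, and the difference of -1.24 ± 0.46 (SE) was not called (adjusted p = 0.0546, 95% interval -2.33 to -0.14). Without FGSC replicate 3 it was -1.80 and called (adjusted p = 6.04e-05). That call rests on FGSC replicates 1 and 2 alone, where the signal and detection p-value of this probe disagreed, as given next.

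The detection p-value of Cldn11 did not go with its signal on the other 2 FGSC arrays. A detection p can only fall as the signal rises, and on FGSC replicate 1 the 1421 probes within 0.5 units of the Cldn11 signal had a median detection p of 0.130, while no probe that kept the order had a p of 0 below a signal of 117. On FGSC replicate 2 the 727 probes within 0.5 units had a median detection p of 0.0438, and a p of 0 began at 111. One value of the Fshr probe ILMN_1228881, on SSC replicate 3, was out of order too, with 104 at a p of 0 where probes of like signal had 0.00427. These were 2 of the 9 kept probes, against 249 (1.32%) of all kept probes that were out of order or carried 9 or more significant digits. No signal of Amh, Dhh, Gata4, Gdnf or Sox9 was of this kind. A signal raised at any of the 3 lowest detection p-values of an array, 0 among them, could not be found out of order, however.

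**Figure D3:**
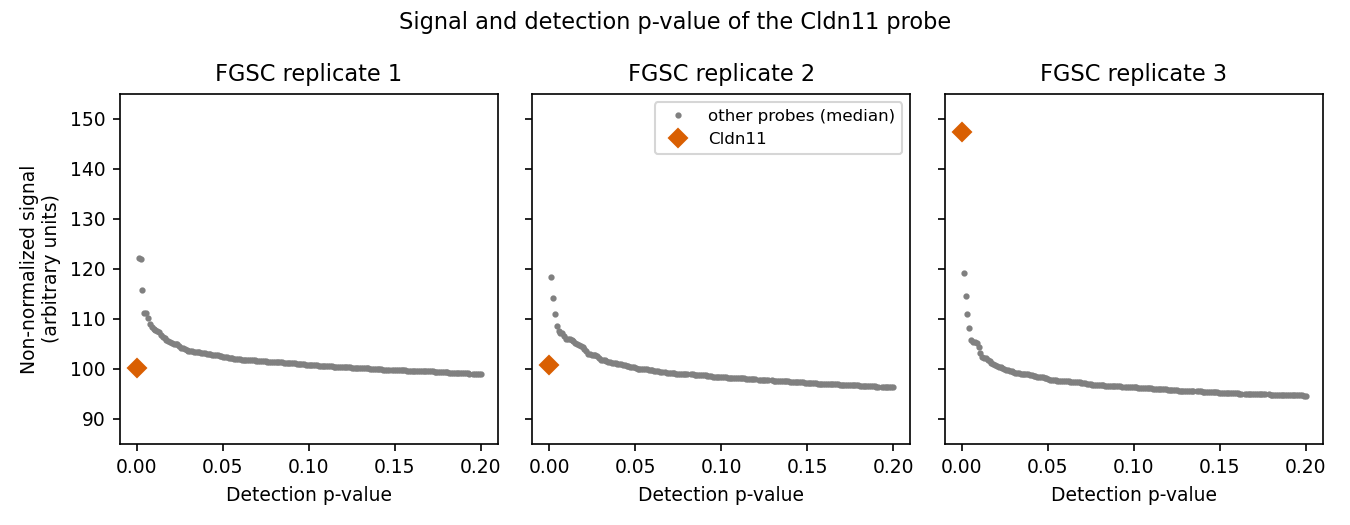
Non-normalized signal (arbitrary units) against detection p-value on the 3 FGSC arrays, with the Cldn11 probe as a diamond and grey points for the median signal of other probes at each p above 0 and up to 0.2. Cldn11, at a p of 0 on each array, lies under the low-p end of the curve at 100 and 101 on replicates 1 and 2. At 147 on replicate 3 it lies above that end. The median signal at a p of 0 on replicate 3, not plotted, was 206, and Cldn11 was not out of order there.

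Genes that read these signals were not uniformly lower in FGSC. Of the AMH pathway 6 of 8 genes were tested, 2 were higher and 2 lower. The receptor gene Amhr2 was detected on all 6 arrays, at 202, 169 and 212 in SSC and 172, 168 and 150 in FGSC, and was not called (-0.30 ± 0.17 SE, adjusted p = 0.166). The type I receptor gene Bmpr1b differed by 1.08 ± 0.13 (adjusted p = 0.000437), a size that rests on an SSC level close to background (97.2, 100 and 99.4, detected on 2 arrays). The signal transducer Smad5 differed by 0.55 ± 0.09, while Smad1 differed by -0.74 ± 0.19. For these and the lists below, the brightest kept probe stood for a gene, and over all 10628 genes 31.4% were called lower and 30.9% higher, with a median difference of -0.003.

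In the hedgehog pathway, which reads DHH, 4 of 7 tested genes were lower and 1 higher. The receptor and target gene Ptch1 gave 354, 256 and 252 in SSC and 141, 145 and 117 in FGSC, and differed by -1.75 ± 0.13 (SE, adjusted p = 5.70e-05). Its groups did not overlap, which held for 71.0% of all genes. The transducer Smo differed by -1.24 ± 0.13 and the co-receptor Cdon by -1.09 ± 0.11. Cdon was detected on 2 FGSC arrays, at a level close to background. Gli3 gave -0.08 ± 0.38 and was not called (adjusted p = 0.862), Gli2 was higher by 0.70 ± 0.09, and the target Gli1 was detected on no array.

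In the GDNF pathway 4 of the 6 genes detected in both groups (on at least 1 array of each) were lower and 0 higher, and 2 more, Egr4 and Lhx1, were lower but detected on no FGSC array. The receptor gene Ret gave 1093, 858 and 909 in SSC and 110, 103 and 97.5 in FGSC, and differed by -4.87 ± 0.09 (SE, adjusted p = 5.71e-07). The response genes Egr2, at -4.33 ± 0.13, and Egr4, at least 14.8-fold lower in its mean, were called in the same direction. Egr4 was uneven in SSC, at 460, 406 and 716, and its fitted difference was -4.07 ± 0.30 (SE). The sizes for Ret and Egr2 rest on FGSC levels close to background, at 4.95 and 4.97 (log2), and Ret was detected on 2 FGSC arrays. Bcl6b, one of the 4, was read from an irregular probe, whose FGSC signals of 361, 292 and 228 were 3.47, 2.98 and 2.26 times the median signal at their detection p-values. Id4, read from a probe with 9 or more significant digits, gave -0.51 ± 0.19 (adjusted p = 0.0556). Its signals on SSC replicate 1 and FGSC replicates 1 and 3 were out of order too. They were 3.51, 3.14 and 2.59 times the median signal at their detection p-values. The Id4 signal on FGSC replicate 2 was 2.95 times the median at its own detection p, too low a p for a raised signal to be found out of order. The co-receptor gene Gfra1 was detected on no array of either group. Of 8 genes of the FSH response detected in both groups 5 were lower and 0 higher, with the kinase subunit gene Prkar2b at -1.58 ± 0.21, the G protein gene Gnas at -0.81 ± 0.24 and the inhibin gene Inha at -0.61 ± 0.19, while Prkaca gave -0.13 ± 0.11 (adjusted p = 0.313).

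Partners of SOX9, WT1 and GATA4 counted 5 lower and 4 higher of the 11 detected in both groups. Gadd45g, an upstream gene of testis determination, gave 997, 857 and 838 in SSC and 204, 169 and 146 in FGSC, and differed by -3.15 ± 0.11 (SE, adjusted p = 2.95e-06). The GATA factor gene Gata6 differed by -2.90 ± 0.11 and the GATA cofactor gene Zfpm2 by -2.30 ± 0.09, while Fgfr2 gave -0.32 ± 0.13 (adjusted p = 0.0710). Nr5a1, which encodes a partner of SOX9 on the Amh promoter, was detected on 2 SSC arrays and no FGSC array and was not tested. Of 8 genes of tight junctions and their polarity complexes detected in both groups, 5 were higher and 3 lower, and the median over all 10 tested was 0.04. Cldn4 gave 107, 97.2 and 100 in SSC and 475, 500 and 457 in FGSC (3.80 ± 0.14). It was detected on 2 SSC arrays, and the size rests on a level close to background there. Pard3, detected on 1 SSC array and close to background there, differed by 2.16 ± 0.08. F11r differed by -1.83 ± 0.13, and Cldn3, detected on no FGSC array, was not called (adjusted p = 0.107).

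Of 30 other Sertoli cell genes 20 were tested, 12 were lower and 5 higher in FGSC, with a median difference of -0.44. Among the 12 genes detected on at least 1 array of each group, 6 were lower and 4 higher, where all such genes gave 28.6% lower and 31.2% higher. Gja1, the main connexin of Sertoli cells, gave 3042, 2865 and 3002 in SSC and 258, 249 and 194 in FGSC, and differed by -4.27 ± 0.10 (SE, adjusted p = 8.75e-07). Shbg, the androgen-binding protein gene, differed by -2.47 ± 0.26, while Vim, the intermediate filament gene of mesenchymal and supporting cells, was higher by 2.13 ± 0.10. The SSC signals of Vim were low, at 118, 115 and 117, so the size of its difference rests in part on a level near background. Shbg was detected on 1 FGSC array, so the size of its difference rests on such a level too. The actin-bundling gene Espn gave 0.10 ± 0.35 and was not called (adjusted p = 0.816). Of these 20 genes 6 were read from irregular probes, among them Shbg, and without the irregular probes 8 of 14 were lower and 4 higher, with a median of -0.40. Dmrt1 was detected on 1 SSC array and no FGSC array.

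**Figure D4:**
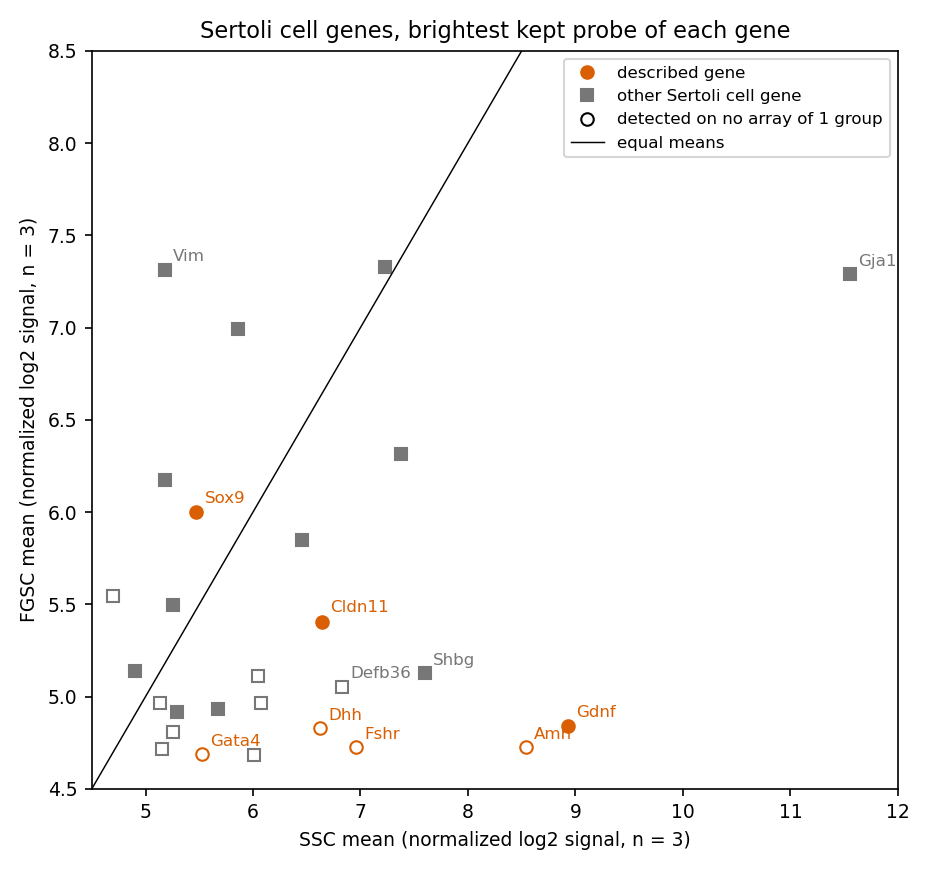
Mean normalized log2 signal in SSC and FGSC (n = 3 each) for the brightest kept probe of the 7 described genes (circles) and of 20 other Sertoli cell genes (squares), with open symbols for genes detected on no array of 1 group. Points under the line had the lower mean in FGSC, such as Gja1 at 11.56 and 7.29, and Vim lies above it at 5.18 and 7.31.

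Markers of other cells moved in the same comparison. The summed normalized signal of the 7 Sertoli cell genes was 1079 to 1225 on the SSC arrays and 115 to 182 on the FGSC arrays. Over the same arrays it was 474 to 564 against 123 to 142 for Leydig and theca cells (10 genes with a probe, 3 of them detected nowhere), 2703 to 2903 against 279 to 308 for peritubular and smooth muscle cells (9 genes, 2 detected nowhere) and 512 to 558 against 163 to 173 for endothelial cells (11 genes). Mylk alone gave 2246 to 2487 of the peritubular sum in SSC and 59.4 to 64.1 in FGSC, and the other genes of that list summed to 356 to 456 against 220 to 244. All of these sums take in undetected probes, which add their background level, so the low sums are in part background. Gdnf, detected on 1 FGSC array only, still added 11.8 to 13.2 units on the FGSC arrays.

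Among the genes of these lists detected on at least 1 array of each group, 2 of 2 Leydig and theca cell genes, 5 of 6 peritubular and 2 of 6 endothelial ones were called lower in FGSC and 0 higher, beside 28.6% lower over all such genes. Counting also the genes detected on no FGSC array, which were kept only through SSC, the numbers were 5 of 6, 6 of 7 and 7 of 11. The steroid enzyme gene Cyp17a1 was at least 5.88-fold lower, while Cyp11a1 was not called (adjusted p = 0.104). The contractile gene Mylk differed by -4.94 ± 0.08 (SE, adjusted p = 4.67e-07), and the smooth muscle actin gene Acta2 gave 0.09 ± 0.29 (adjusted p = 0.816). The endothelial gene Egfl7 differed by -2.12 ± 0.12 (adjusted p = 1.78e-05), and the endothelial receptor gene Kdr gave 0.17 ± 0.08 (adjusted p = 0.102).

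Granulosa cell genes, which include Fshr, summed to 715 to 803 in SSC against 446 to 522 in FGSC. Of the 8 detected in both groups, 3 were lower and 2 higher, and Foxl2, the defining granulosa factor, was detected on 1 array of each group. Macrophage genes summed to 110 to 118 against 96.6 to 101. Of these, Fcer1g differed by -0.48 ± 0.10 (SE, adjusted p = 0.00759), the lysozyme gene Lyz2 gave 0.04 ± 0.08 (adjusted p = 0.692), and Adgre1 and Tyrobp were detected on no array. Germ cell genes summed to 6027 to 6331 in SSC and 14588 to 18439 in FGSC, where Sohlh1 alone gave 2179 to 2557 and 9199 to 11280. The other genes of that list summed to 3774 to 3848 against 5389 to 7159, so this sum does not speak for germ cell genes in general. Of the 8 germ cell genes detected in both groups 4 were lower and 3 higher. Ddx4, 1 of the 4 lower, was read from an irregular probe with 9 or more significant digits. The 3 higher were Sohlh1, Kit at 3.05 ± 0.16 and the oocyte factor gene Figla at 4.88 ± 0.11 (adjusted p = 7.44e-07). Dazl, a germ cell RNA-binding protein gene, gave -0.53 ± 0.25 (adjusted p = 0.114), and Mael and Gfra1 were detected nowhere. The part of other cells in the differences of the Sertoli cell genes was not tested.

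**Figure D5:**
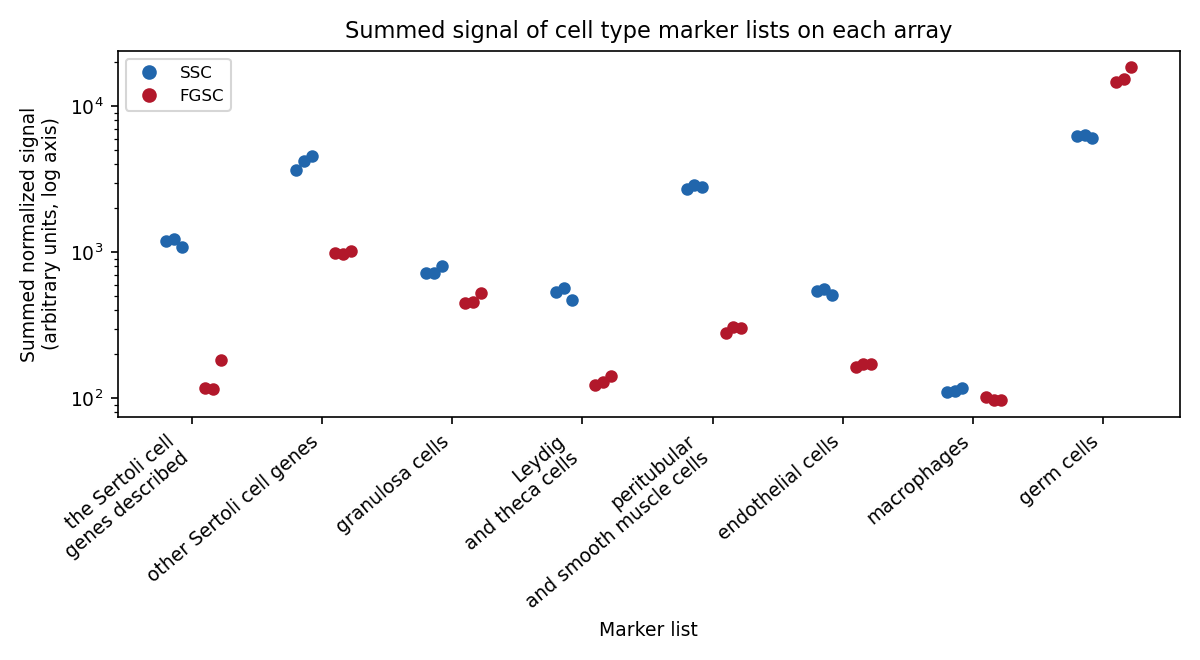
Summed normalized signal (arbitrary units, log axis) of each marker list on the 3 SSC arrays (blue) and the 3 FGSC arrays (red). Sums run over the brightest probe of every listed gene, detected or not, so they include background. The 7 Sertoli cell genes stand between 1079 and 1225 in SSC and between 115 and 182 in FGSC, where replicate 3, with the high Cldn11 value, is highest. Mylk makes up most of the peritubular sum in SSC.

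The genes whose profile over the 6 arrays lay nearest to each Sertoli cell gene were found by the root mean square difference after each probe's mean was subtracted. For Amh these were Mef2c (0.0726 log2 units) and Robo4 (0.0776), for Gdnf Myo7a (0.0514) and Atp1b2 (0.109), and for Dhh Fmo1 (0.0238) and Eppin (0.0437). Fshr lay nearest to Clcn2 (0.0709) and Stard8 (0.0750), Gata4 to Sall2 (0.0328) and Unc93b1 (0.0547), and the first Sox9 probe to Bin1 (0.0734) and Top1 (0.0975). Cldn11 had no close neighbour, with Pbk at 0.311 and Tjap1 at 0.315. The 6 points of each profile share 2 groups and the same arrays.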

How the data were processed

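Total RNA of 3 SSC and 3 FGSC samples was measured on Illumina arrays, and groups and replicate numbers came from the sample titles. The authors deposited for each of 45281 probes an average intensity, not normalized, with its detection p-value on every array, per the file headers. They also deposited a processed table, whose values were read as intensity on a linear scale and share 1 median, 19.9, in each column. They ranked the probes of an array as its signals did (rank correlation 1), and their scale, centring and steps are not given in the sources used here. The submitters' processing notes name lumi.

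The signals were corrected and quantile-normalized with neqc (limma 3.58.1, R 4.3.3), with the background taken from the detection p-values and an offset of 16, and put on the log2 scale. FGSC and SSC were compared by lmFit and eBayes over all kept probes, with no covariate. A probe was irregular where its signal passed the median signal of probes 3 steps of detection p away, or carried 9 or more significant digits, which marked 267 probes. A bound ("at least") sets each dim array to the higher of the probe's own value and the lowest detected regular signal. The arrays detected 16198 to 18823 probes, and their number limits the precision. Where replicates came from is not stated, so the tests see the variation among these arrays alone, which may be technical. An exact permutation test of 3 against 3 arrays cannot go below 0.1, so none was run. The test was checked on simulated data.

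Symbols were updated by gene ID through RefSeq (GRCm38.p6), with 34807 of 34885 probes of 1 symbol matched by gene ID and 11 by transcript, and 18 probes with several symbols and 10378 unnamed here. All members are described. Other lists are given by counts, with examples taken from the up to 3 called genes of largest difference without overlap and the brightest uncalled gene. Genes named beyond this rule (Gli2, Gli1, Lhx1, Bcl6b, Sohlh1, Ddx4, Gfra1, Nr5a1, Dmrt1, Foxl2, Adgre1, Tyrobp, Mael) were chosen after their values were seen. Members and lists were chosen with earlier results of these data known. Samples with the same replicate number did not deviate together (correlations of -0.22, -0.04 and -0.23).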

Additional observations from a re-analysis of the deposited data

How the results depend on the processing

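Amh, Dhh, Gata4, Gdnf, the brightest Fshr probe and the Sox9 probe ILMN_3007428 kept their direction and call in all 13 alternatives in which they were tested, with Amh between -3.85 and -2.27 and Gdnf between -4.18 and -2.51, sizes that the treatment of the background in FGSC sets in part. The number of Sertoli cell gene probes called lower, 6, was 6 to 7 when 1 array was left out, 8 with the authors' processed table, and 1 (Cldn11) of 2 left with a detection p under 0.01 on all 6 arrays. The number called higher, 1 (Sox9), was 0 to 1 when 1 array was left out and 0 with no background correction, median scaling, an offset of 50, no detection filter and the replicate block. With both probes of Sox9 averaged, the number of genes called higher was 0 in place of 1, and 6 in place of 5 were lower. The Fshr probe ILMN_1228881 was called with the processed table (-0.52, adjusted p = 0.0437), and Cldn11 with the processed table, median scaling, the stricter filter and without FGSC replicate 3. Cldn11 passed the stricter filter only through the detection p-values of 0 on FGSC replicates 1 and 2 that did not go with its signals. With irregular probes left out, Cldn11 and that Fshr probe were not tested, and 6 of 7 probes were lower and 1 higher. Over all probes, median scaling moved the median to -0.12 and the calls from 5552 higher and 5574 lower to 3146 and 5080, 38.2% higher in place of 49.9%. The stricter filter gave 3867 higher and 2959 lower. Replicate numbers are not stated to pair the samples, and the replicate block gave 4913 higher and 4820 lower. Near background, array signal limits every difference.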

Other observations

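Several Sertoli cell genes outside the set described above had FGSC signals that were raised over their detection p-values by a nearly constant amount. On FGSC replicate 3, Cst9, Cst12, Defb36, Rhox8 and Shbg gave 108, 105, 113, 113 and 113, which was 20.0 units above the median signal of other probes with the same detection p in each of the 5 cases. Hsd17b1, on the granulosa cell list, lay 20.0 units above it as well. On FGSC replicate 2, Cst12, Rhox8 and Shbg lay 11.2, 11.3 and 11.2 units above. Over the whole array, 70 probes without long digits were raised out of order on FGSC replicate 3, and 54 of them lay within 1 unit of the median excess of 20.0. On FGSC replicate 2 all 32 such probes lay within 1 unit of 11.2, and on FGSC replicate 1 all 18 lay within 1 unit of 10.0. On the SSC arrays 6, 11 and 13 probes were raised out of order, with 3, 6 and 1 of them within 1 unit of the median of their array. None of these was a probe of the 7 genes described. A signal with a detection p of 0 has no implied level, so whether such signals were raised was not measured. This pattern was noticed after the values were seen, and its cause was not tested.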
